A study of Mus musculus with 9 samples.

Results

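Matricellular proteins are secreted into the extracellular matrix, where they bind collagen fibres, growth factors and cell receptors. The 10 genes described here are Postn, Tnn, Tnc, Ibsp, Spp1, Comp, Thbs4, Aebp1, Fn1 and Sparc, out of 14300 protein-coding genes listed in both deposited tables. They were chosen by name as non-collagen matrix genes, with their values in these libraries already known. Their levels, fold changes and calls in fits to all genes are therefore given as a description, and no test of the set is offered. The RNA came from the tibialis anterior, a shin muscle rich in fast fibres. All mice were male and of the C57BL/6J strain, and each of 3 groups had 3 biological replicates. Control mice were taken to be those named Sham in the deposited tables, the only columns without orchiectomy, ORX mice had lost their testes by orchiectomy, and ORX+DHT mice had the same operation plus treatment with DHT, the androgen dihydrotestosterone. Muscles were taken 4 weeks after treatment. The age of the mice and the dose of the androgen are not given in the sources used here, and all 3 groups are the same strain with no transgene named.

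Matricellular genes are scarce in resting adult tissue and are switched on where matrix is built or remodelled, in development, after injury and under mechanical load. Most of them act on cells through integrins, and fibril-forming collagens are the binding partners that several of them share. In skeletal muscle the matrix is made mainly by fibroblasts between the fibres and by cells at the junction with tendon.

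Libraries held between 1340209 and 1682235 recovered reads. Replicates correlated at a Pearson's r of 0.928 to 0.973 across 8631 genes, which are not independent replicates, and control 1 was the least alike to its group (r of 0.928 with control 2 and 0.929 with control 3, against 0.968 between controls 2 and 3). Markers of skeletal muscle fibres (10 genes, among them Acta1 and Ckm) were abundant in every library, with a summed level of 321205 to 367181 normalised counts in controls, 278404 to 289079 in ORX muscle and, with DHT, 294373 to 316599. In whole muscle, fewer cells of a type and less RNA per cell cannot be told apart. A normalised count is a read count divided by the scaling factor of its library. Levels below are normalised counts with all 9 libraries on 1 scale unless stated otherwise.

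Most of these genes stood higher in ORX muscle than in ORX+DHT muscle, and the controls were divided. Every ORX+DHT library lay below every ORX library for 8 of the 10 genes (all but Fn1 and Sparc), where 9.13% of all 8770 genes tested showed this pattern. Tnn, Ibsp and Spp1 differed most, by 11.8, 18.7 and 8.09 times between the ORX and ORX+DHT means. The ratio for Ibsp rests on 2, 1 and 6 reads in ORX+DHT muscle. Without ORX+DHT 3, the highest of them, it was 37.1, from 189 ORX reads and 3 ORX+DHT reads. The exact Clopper-Pearson 95% interval of that ratio was 12.5 to 181, for counting error only and with reads pooled over libraries. ORX+DHT 3 was left out after its value was seen. Leaving out ORX+DHT 1 or 2 instead raised the ORX+DHT mean from 2.97 to 3.45 or 3.98 normalised counts, which lowers the ratio. Postn, Tnc, Comp and Aebp1 followed with 4.43, 3.37, 3.25 and 2.80 times. Thbs4, Fn1 and Sparc differed by 1.26, 1.33 and 1.06 times.

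The 4 genes with the largest ratios, Ibsp, Tnn, Spp1 and Postn, are shown with the sequence before their RefSeq starts, in which 5 motifs were searched. Each line gives the 150 bases before the RefSeq start on the coding strand, 5′ to 3′, in GRCm38, with capitals marking motif matches. Tnn lies at chr1:160153576-160153725 on the minus strand. Ibsp lies at chr5:104299137-104299286, Spp1 at chr5:104434961-104435110 and Postn at chr3:54360957-54361106, all on the plus strand. GENCODE M21 starts Ibsp further upstream than RefSeq, so most of the printed Ibsp window, its motif matches included, lies inside the gene as placed by GENCODE.
Tnn: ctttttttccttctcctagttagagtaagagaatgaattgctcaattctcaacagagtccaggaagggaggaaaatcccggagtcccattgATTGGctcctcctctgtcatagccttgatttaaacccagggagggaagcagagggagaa
Ibsp: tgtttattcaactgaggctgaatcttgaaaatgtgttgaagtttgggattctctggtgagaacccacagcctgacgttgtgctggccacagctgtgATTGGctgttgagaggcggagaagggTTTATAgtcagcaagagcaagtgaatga
Spp1: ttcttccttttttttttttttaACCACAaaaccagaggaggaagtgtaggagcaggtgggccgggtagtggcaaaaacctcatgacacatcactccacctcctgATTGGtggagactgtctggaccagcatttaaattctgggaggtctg
Postn: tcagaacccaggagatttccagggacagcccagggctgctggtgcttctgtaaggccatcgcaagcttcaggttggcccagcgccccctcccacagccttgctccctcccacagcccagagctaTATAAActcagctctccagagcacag

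The CCAAT box (CCAAT, searched on both strands) was found in these 150 bases in Tnn, Ibsp and Spp1, each time as ATTGG, beginning 59, 54 and 46 bases before the start. It was found in 3 of the 8 genes of the set with a RefSeq promoter and in 24.5% of 32851 mouse promoters of the same length, so it is common and nothing particular to the set is read from it. A TATA box (TATAAA, both strands) began 26 bases before the start in Postn and, read on the opposite strand as TTTATA, 28 before it in Ibsp. Tnc had TATAAA 126 bases before its start, which made 3 of 8 genes against 7.57% of all promoters. The RUNX site (TGTGGT, both strands) was found in Spp1 alone among the 8, against 8.40% of all promoters. An androgen receptor half-site (AGAACA, both strands) was found in Sparc alone, 2 times, against 9.62%, and the AP-1 site (TGANTCA, both strands) in 0 of 8, against 4.24%. In the 250 bases before the start the half-site was found in Sparc and Tnn, 2 of 8 genes against 16.1% of all promoters. The TATA box was found there in 4 of 8, with Spp1 added, against 12.4%, and the other motifs in no further gene. A match of letters is not a binding site, and no match says only that the letters are not in this window. Start sites differ between annotations, and the GENCODE M21 models of Ibsp and Aebp1 have 0 coding transcripts that begin within 50 bases of the RefSeq start.

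Tnn encodes tenascin-W, a large glycoprotein found in the outer layer of bone and in stem cell niches and scarce in most adult tissue (chr1:160085029-160153580 in GRCm38, minus strand). Its level was 4.99, 0 and 33.8 normalised counts in controls 1, 2 and 3. It was 46.1, 49.5 and 44.7 in ORX muscle, and 4.05, 2.90 and 4.94 in ORX+DHT muscle. The ORX libraries stood close together and above all others, and control 3 alone among the controls approached them. The 0 in control 2 allows up to 3 reads, or 3.32 normalised counts, counting error only. The log2 fold change was 3.01 (SE 0.91) in ORX against control and -3.30 (SE 0.28) in ORX+DHT against ORX, on the scale of log2 of the normalised count plus 1, which understates the change of low genes.

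Ibsp encodes bone sialoprotein, an acidic integrin-binding protein of mineralised bone that seeds mineral crystals (chr5:104299171-104311469, plus strand). It was at 4.99, 0 and 33.8 in the controls, which rested on 4, 0 and 34 reads, the same read numbers as for Tnn. It was at 54.97, 48.6 and 62.9 in ORX muscle. It was at 2.03, 0.967 and 5.93 in ORX+DHT muscle. The lowest ORX library lay far above the highest ORX+DHT library, and control 3 lay between the groups. The log2 fold changes were 3.25 (SE 0.91) and -4.05 (SE 0.38) for the same pair of comparisons.

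Spp1 encodes osteopontin, an integrin- and CD44-binding protein made by macrophages and by bone and injured muscle cells, and it belongs to the same family of acidic bone proteins as Ibsp. The pair are neighbours on chromosome 5, with Spp1 at chr5:104435118-104441050, 123.6 kb beyond the end of Ibsp. Spp1 was at 7.49, 1.11 and 21.8 in controls, 56.0, 25.6 and 38.1 in ORX muscle and 3.04, 4.83 and 6.92 in ORX+DHT muscle. ORX values spread more widely than those of Ibsp but did not overlap with either other group. Its log2 fold changes were 2.39 (SE 0.67) in ORX against control and -2.78 (SE 0.34) in ORX+DHT against ORX. Dmp1, another member of that family, was at 0 to 2.497 normalised counts in all 9 libraries.

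Postn encodes periostin, which binds collagen and integrins and aids collagen cross-linking (chr3:54361109-54391037, plus strand). Its level was 81.2, 46.4 and 211 in controls, 265, 228 and 228 in ORX muscle and 42.6, 65.7 and 54.3 in ORX+DHT muscle. All 3 ORX libraries lay above all controls, but control 3 was only just below the lowest of them, while control 2 lay among the ORX+DHT values. The log2 fold changes were 1.36 (SE 0.40) and -2.15 (SE 0.14).

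Tnc encodes tenascin-C, a many-armed glycoprotein of the muscle and tendon junction that is induced by injury and load (chr4:63959785-64047015, minus strand). It was at 23.7, 15.5 and 46.7 in controls, 39.3, 32.4 and 48.0 in ORX muscle and 8.11, 14.5 and 12.8 in ORX+DHT muscle. ORX and control values overlapped, since control 3 exceeded ORX libraries 1 and 2. Tnc was the only gene of the 10 for which every ORX+DHT library lay below every control, which 7.12% of the 8595 genes tested did. Its log2 fold changes were 0.59 (SE 0.34) in ORX against control, -1.70 (SE 0.26) in ORX+DHT against ORX and -1.10 (SE 0.39) in ORX+DHT against control.

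Aebp1 encodes a secreted protein that binds fibrillar collagen and promotes its assembly (chr11:5861947-5872088, plus strand). It was at 129.9, 170.3 and 216 in controls, 428, 331 and 342 in ORX muscle and 127, 134 and 132 in ORX+DHT muscle. All ORX libraries lay above every other library, and the ORX+DHT libraries stood close together. Its log2 fold change in ORX against control was 1.11 (SE 0.19), the smallest error relative to its fold among the 10. In ORX+DHT against ORX its log2 fold change was -1.47 (SE 0.11).

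Comp and Thbs4 encode thrombospondins that are abundant in tendon and cartilage and bind collagen (chr8:70373558-70382066, plus strand, and chr13:92751590-92794818, minus strand). Comp was at 12.5, 1.11 and 14.9 in controls, 15.7, 15.4 and 35.6 in ORX muscle and 0, 10.6 and 9.88 in ORX+DHT muscle. The groups ORX and control were separated by less than 1 normalised count, and the high ORX mean rested on library 3. The 0 in ORX+DHT library 1 allows up to 3.04 normalised counts. Comp had log2 fold changes of 1.49 (SE 0.66) and -2.13 (SE 0.68), where the first ran from 0.56 without control 2 to 2.01 without control 3 and the second was -0.94 without ORX+DHT library 1.

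Thbs4 was at 288, 221 and 218 in controls, 262, 255 and 322 in ORX muscle and 204, 236 and 227 in ORX+DHT muscle. Control and ORX values overlapped, and ORX+DHT lay below ORX by a narrow margin. The log2 fold changes were 0.21 (SE 0.17) and -0.32 (SE 0.11).

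Fn1 and Sparc were the genes whose groups overlapped in both of these comparisons. Fn1 encodes fibronectin, a scaffold on which other matrix proteins assemble (chr1:71585520-71653200, minus strand). It was at 126, 124 and 159.9 in controls, 300.4, 148 and 203 in ORX muscle and 155, 164 and 169.95 in ORX+DHT muscle. The ORX libraries spread below and above the whole ORX+DHT range. The log2 fold changes were 0.62 (SE 0.23) and -0.35 (SE 0.17), and the second was -0.09 without ORX library 1 and -0.60 without ORX library 2.

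Sparc encodes a collagen-binding protein of basement membranes and connective tissue (chr11:55394500-55423183, minus strand). It was at 1046, 631 and 901 in controls, 953, 945 and 1133 in ORX muscle and 813, 930.04 and 1115 in ORX+DHT muscle. The ranges of the 3 groups overlapped. The log2 fold changes were 0.26 (SE 0.19) in ORX against control and -0.09 (SE 0.10) in ORX+DHT against ORX.

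**Figure D1:**
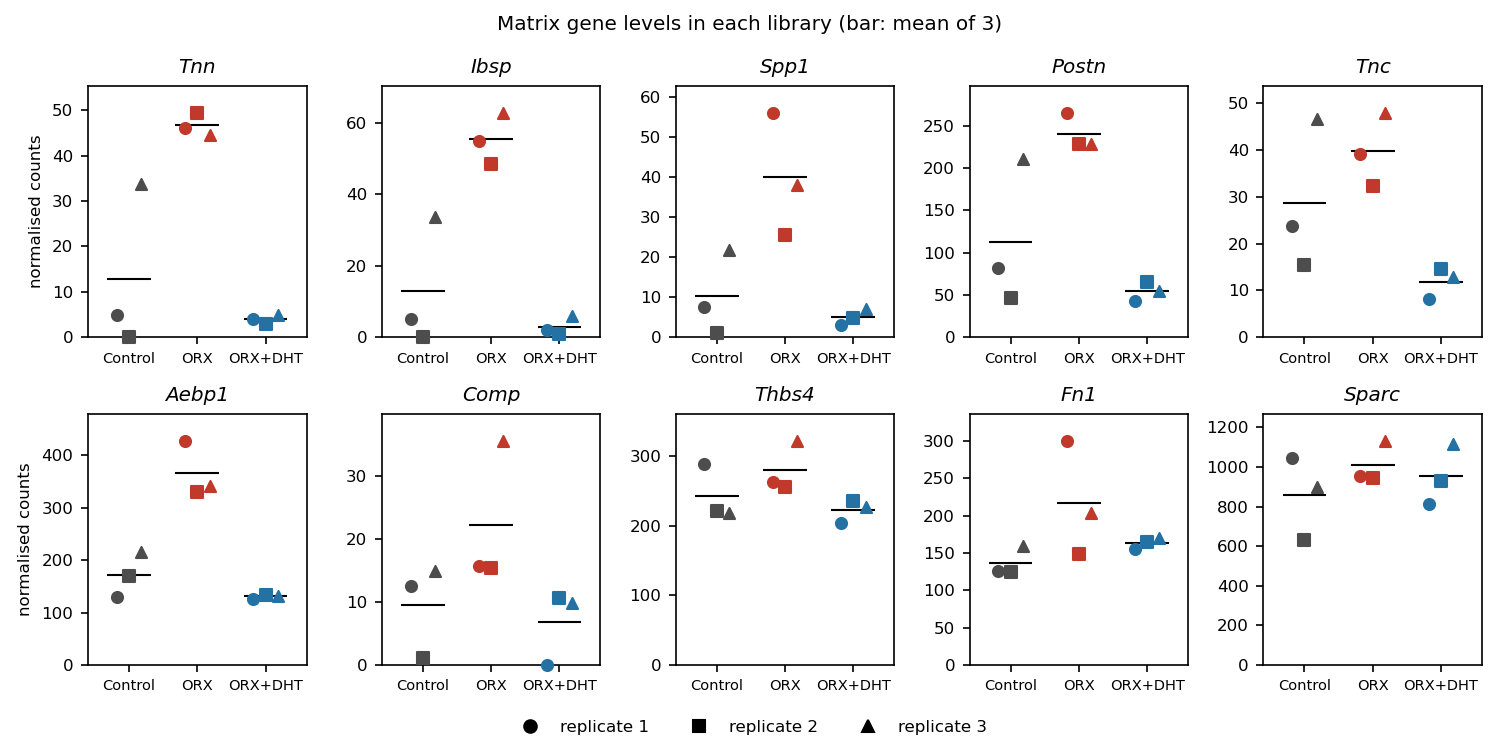
Normalised counts of each of the 10 genes (vertical axis, linear and starting at 0) in the 3 groups, with 1 point per library, point shape for the replicate number and a bar for the mean of 3 libraries. ORX points lie above all ORX+DHT points in every panel but Fn1 and Sparc, and control 3 (grey triangle) is the highest control in 8 panels.

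Limma, a linear model fitted to all genes with Benjamini-Hochberg adjustment, called 358 of 8770 genes in ORX+DHT against ORX (4.08%), 209 higher (2.38%) and 149 lower (1.70%), at an adjusted p under 0.05. With quantile normalisation 161 of 327 calls were higher (49.2%, against 58.4%). Of the 10 matrix genes, 6 were called, all lower: Tnn, Ibsp, Spp1, Postn, Tnc and Aebp1. The genes were picked with this contrast in view, so nothing is read from that count. Leaving out any 1 of the 6 libraries kept the same 6 calls. Comp joined them without ORX+DHT library 2 or 3, and Fn1 without ORX library 2. Tnn, Ibsp, Spp1 and Comp had ORX+DHT means of 3.96, 2.97, 4.93 and 6.84 normalised counts. These 4 genes passed the minimum mean of 10 only through the ORX libraries, which left only a lower call open to them. Nothing is therefore read from their calls or from how these held when a library was left out. The median log2 fold change of the 10 genes was -1.91, against 0.0062 over all genes.

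In ORX against control, limma called 5 of 8631 genes (0.0579%) and 0 of the 10 matrix genes. The mean was higher in ORX muscle for 10 of 10. An unadjusted limma p under 0.05 was found for 7 of the 10 and for 622 of all 8631 genes. The 10 were chosen with their values known, so nothing is read from that count. edgeR also called 0 of the 10, and DESeq2 called 1, Aebp1. The median log2 fold change was 1.23, against -0.0077 over all genes. All ORX libraries lay above all controls for 6 of the 10 (Postn, Tnn, Ibsp, Comp, Aebp1 and Spp1), which 6.28% of all genes tested did. Both comparisons share the ORX libraries, so their values are not independent.

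**Figure D2:**
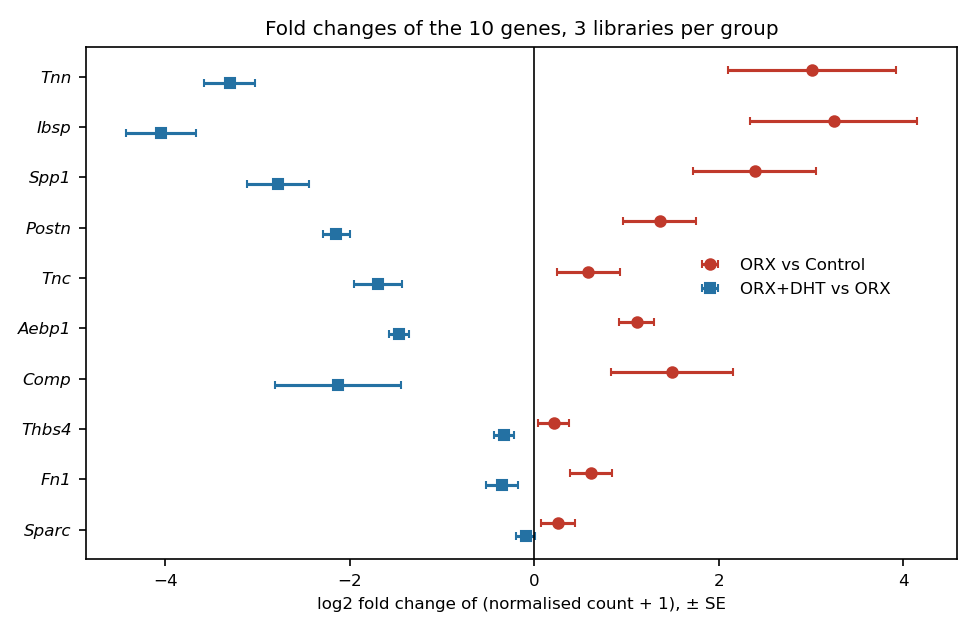
Log2 fold changes of log2(normalised count + 1) for the 10 genes with their standard errors (horizontal axis), circles for ORX against control and squares for ORX+DHT against ORX, 3 libraries per group. All circles lie above 0 and all squares below it, and the bars of Tnn, Ibsp and Spp1 are wider against control (SE 0.91, 0.91 and 0.67) than against ORX (0.28, 0.38 and 0.34).

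Control muscle was where the libraries of 1 group disagreed. Control 3 was the highest control for 8 of the 10 genes and control 2 the lowest for 8. On the log2 scale control 3 was nearer to the ORX mean than to the ORX+DHT mean for 6 genes (Postn, Tnn, Tnc, Ibsp, Comp and Spp1), control 1 for 4 (Tnc, Comp, Thbs4 and Sparc) and control 2 for 0. Among the other 143 genes called lower in ORX+DHT against ORX, control 3 was nearer to ORX for 65.7%, control 1 for 49.0% and control 2 for 54.5%. The difference between the matrix genes and the other 143 was not tested.

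The comparison of ORX with control depended on which controls entered. Without control 3, limma called 21 of 8636 genes (0.243%, and 0.162% higher) and 5 of the 10 matrix genes, Aebp1, Ibsp, Postn, Spp1 and Tnn, all higher in ORX. Control 3 was singled out by its values in these same genes, so the 5 calls support nothing. Without control 1, which stood apart over all genes, 51 of 8609 genes (0.592%, and 0.197% higher) and 1 of the 10, Aebp1, were called. In the other 4 fits that left out 1 library, 0 of the 10 were called. The log2 fold change of Tnn ran from 1.73 without control 2 to 4.28 without control 3, and that of Ibsp from 1.96 to 4.52 for the same pair of libraries. For that pair Spp1 ran from 1.48 to 3.20, Postn from 0.87 to 1.94 and Tnc from 0.23 to 0.998. For Aebp1 it stayed between 0.92 and 1.28.

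**Figure D3:**
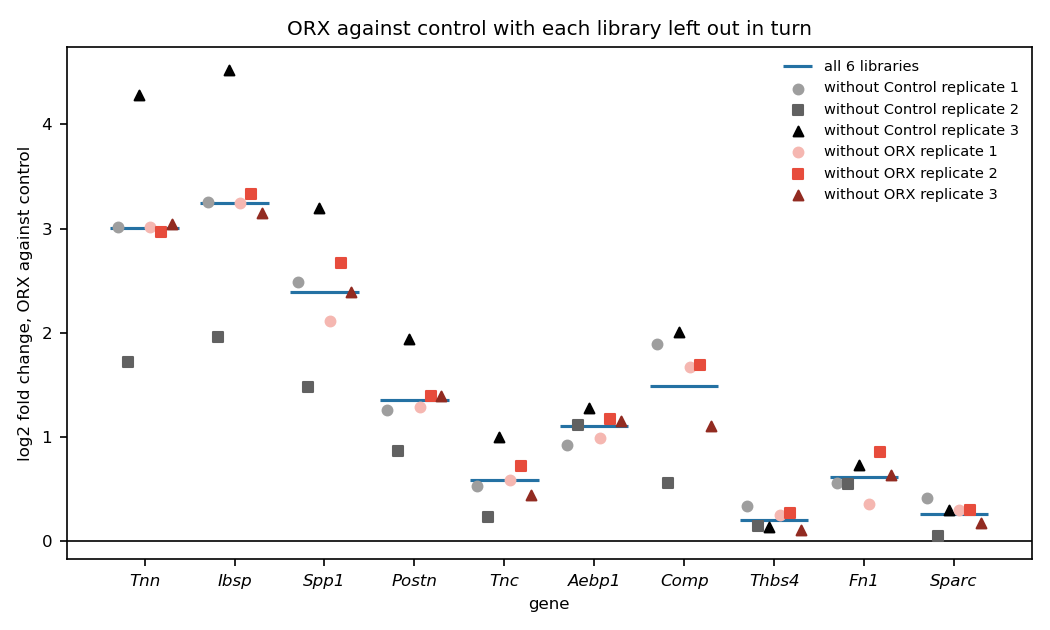
Log2 fold change of each gene in ORX against control (vertical axis) with all 6 libraries (blue line) and with each library left out in turn (points). The points without control 2 and without control 3 lie farthest from the line for Tnn, Ibsp, Spp1 and Postn, and the points for Aebp1 lie between 0.92 and 1.28.

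Muscle given the androgen was also set beside control muscle. Limma called 3 of 8595 genes (0.0349%) and 0 of the matrix genes tested there, and edgeR and DESeq2 called 0 of those matrix genes. Of them 1 (Tnc) had an unadjusted limma p under 0.05, as did 557 of all 8595 genes. Only 6 of the 10 passed the minimum mean of 10 normalised counts in that comparison, since Tnn, Ibsp, Spp1 and Comp are low in both groups. Of those 6, 4 had a lower and 2 a higher fitted level in ORX+DHT muscle. The ORX+DHT mean divided by the control mean was 0.481 for Postn, 0.307 for Tnn, 0.230 for Ibsp, 0.486 for Spp1, 0.413 for Tnc, 0.720 for Comp, 0.763 for Aebp1 and 0.917 for Thbs4, and 1.19 for Fn1 and 1.11 for Sparc. The direction for Tnn, Ibsp and Spp1 depended on control 3. Without it, in a calculation chosen after seeing the data, the control means were 2.497 for Tnn and Ibsp and 4.30 for Spp1, below the ORX+DHT means of 3.96, 2.97 and 4.93, all from a few reads per library. Without control 3 the ratio was 0.850 for Postn, and its log2 fold change was -0.20 in place of -0.79.

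Levels of different genes were compared per length, as RPKM, reads per kilobase of exon scaled to the reads of the library. In ORX muscle Sparc led with 191 ± 20.997 (SD, n = 3), followed by Aebp1 with 64.7 ± 9.57 and Thbs4 with 60.8 ± 8.28, whose ranges overlapped. Postn (19.8 ± 1.81), Ibsp (19.2 ± 2.58), Spp1 (17.3 ± 6.69) and Fn1 (13.3 ± 4.76) formed a middle tier in which each neighbour overlapped with the next. Tnn (5.75 ± 0.265), Comp (5.36 ± 2.82) and Tnc (3.67 ± 0.739) were lowest, and Comp overlapped with both others. The ranges of Postn and Ibsp overlapped, so bone sialoprotein and periostin transcripts could not be ranked.

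In ORX+DHT muscle the order was different. Sparc (170.4 ± 25.7), Thbs4 (45.8 ± 3.23), Aebp1 (21.9 ± 0.576), Fn1 (9.47 ± 0.360) and Postn (4.22 ± 0.894) led in that order, with no overlap between neighbours. Spp1 (2.02 ± 0.780), Comp (1.56 ± 1.35), Tnc (1.03 ± 0.286), Ibsp (0.972 ± 0.846) and Tnn (0.462 ± 0.117) followed, and each overlapped with its neighbour. In controls the means ran from Sparc (145 ± 30.2) through Thbs4 (47.1 ± 4.63) and Aebp1 (27.5 ± 8.24) to Postn (8.44 ± 6.82), Fn1 (7.54 ± 1.44), Ibsp (4.13 ± 5.95), Spp1 (4.02 ± 4.37), Tnc (2.39 ± 1.44), Comp (2.04 ± 1.61) and Tnn (1.47 ± 2.11). From Postn downward the control ranges of neighbours overlapped.

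Collagens led the genes most like Postn and Tnn across the 9 libraries. Among 3790 genes with a mean of at least 50 normalised counts, the highest Pearson's r with Postn on the log2 scale were those of Col12a1 (0.96), Col1a1 (0.94), Col1a2 (0.94), Lum (0.90) and Srsf6 (0.89). With Tnn they were Col12a1 (0.98), Col1a1 (0.96), Col1a2 (0.95), Col5a2 (0.95) and Hnrnpl (0.91). Within the set, r with Tnn was 0.98 for Ibsp, 0.97 for Spp1 and 0.94 for Postn, and 0.47 for Thbs4, 0.61 for Fn1 and 0.57 for Sparc. These are descriptions over libraries that share group membership and scaling. Col12a1, for a collagen on the surface of fibrils, was at 31.2, 14.4 and 105 in controls, 187, 144 and 154 in ORX muscle and 31.4, 28.04 and 29.6 in ORX+DHT muscle, so control 3 again lay between the other controls and ORX.

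The wider matrix pathway was described with 5 lists, 109 genes in all, chosen with earlier results of these data known. They held other matricellular genes, cell-surface receptors for matrix, the TGF-beta pathway, genes of matrix fibre assembly and fibril collagens. In ORX+DHT against ORX 72 genes were tested, and limma called 2 higher and 8 lower, against 4.08% of all genes called.

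The fibril collagens, the scaffold that several of the 10 genes bind, held 6 of the 8 lower calls among 11 tested, with a median log2 fold change of -0.82 against 0.0062 over all genes. The 6 were Col11a1, Col12a1, Col14a1, Col1a1, Col1a2 and Col5a2, of which Col14a1 and Col5a2 were not called with all 9 libraries in 1 fit (limma adjusted p = 0.199 for Col5a2). Col11a1, a minor collagen of fibril cores, was at 15.0, 11.1 and 48.7 normalised counts in controls, 72.6, 73.35 and 53.8 in ORX and 14.2, 7.73 and 10.9 in ORX+DHT muscle. It fell by 2.53 on the log2 scale (SE 0.24, limma adjusted p = 2.31e-06) in ORX+DHT against ORX, with no overlap. Col12a1 fell by 2.40 (SE 0.14, limma adjusted p = 1.01e-08).

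Col14a1, another collagen of fibril surfaces, was at 19.98, 8.85 and 12.9 in controls, 42.2, 17.1 and 35.6 in ORX and 8.11, 11.6 and 16.8 in ORX+DHT muscle. Its lowest ORX library stood just above its highest ORX+DHT library. It fell by 1.27 (SE 0.33, limma adjusted p = 0.0345), a call that was lost without ORX 1, ORX 3, ORX+DHT 1 or ORX+DHT 2, with an adjusted p of up to 0.181 in those limma fits. It was also lost with quantile normalisation and with all 9 libraries in 1 fit (limma adjusted p of up to 0.173).

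Of the other matricellular genes 12 of 27 were tested and 1 was called, Thbs2, a thrombospondin that limits vessel growth and aids fibril assembly. It was at 13.7, 6.63 and 46.7 in controls, 62.8, 62.3 and 77.8 in ORX and 20.3, 25.1 and 19.8 in ORX+DHT muscle, with control 3 again the highest control. It fell by 1.60 (SE 0.18, limma adjusted p = 1.90e-05) in ORX+DHT against ORX, but with all 9 libraries in 1 limma fit its adjusted p was 0.139. The median log2 fold change of the 12 was -0.24.

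Of the fibre assembly genes 15 of 26 were tested and 1 was called, Mfap4, a microfibril-associated protein of elastic fibres. It was at 15.0, 7.74 and 8.94 in controls, 16.7, 11.9 and 19.8 in ORX and 4.05, 3.87 and 4.94 in ORX+DHT muscle, low levels without overlap between the last groups. It fell by 1.69 (SE 0.35, limma adjusted p = 0.00719). With an ORX+DHT mean of 4.29 it passed the minimum mean of 10 only through the ORX libraries, so nothing is read from this call. Without ORX 1 or ORX 3 its mean was under the minimum of 10 and it was not tested, and it kept its call in the other 4 fits that left out 1 library (highest limma adjusted p 0.0269). Among 16 TGF-beta pathway genes tested limma called 0, and edgeR and DESeq2 also called 0. Of the 16, 2 had an unadjusted limma p under 0.05, as did 1250 of all 8770 genes.

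The receptor list held the calls in the other direction. Of 25 listed 18 were tested and 2 were called, both integrin subunits and both higher in ORX+DHT muscle. Itga7, the laminin receptor subunit of muscle fibres, was at 211, 192 and 205 in controls, 182, 164 and 150.5 in ORX and 224, 254 and 231 in ORX+DHT muscle. It rose by 0.52 (SE 0.11, limma adjusted p = 0.00669) and kept its call whichever of the 6 libraries was left out, though not with all 9 libraries in 1 fit (adjusted p = 0.0635). Itga5, the fibronectin receptor subunit, was at 42.5, 16.6 and 31.8 in controls, 22.6, 19.6 and 20.7 in ORX and 31.4, 42.5 and 35.6 in ORX+DHT muscle. It rose by 0.77 (SE 0.21, limma adjusted p = 0.0429), and the call was lost in all 6 fits that left out 1 library (highest limma adjusted p 0.201). Itga11, a collagen receptor subunit singled out after its values were seen, had no overlap between ORX and ORX+DHT in the opposite direction, at 9.99, 8.85 and 6.95 in controls, 12.8, 13.6 and 14.9 in ORX and 3.04, 2.90 and 1.98 in ORX+DHT muscle. It was under the minimum mean and not tested. It was called with no filter and without ORX+DHT 3, where it passed the minimum only through the ORX libraries.

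In ORX against control limma called 0 of the 71 list genes tested. Of the 71, 17 had an unadjusted limma p under 0.05, against 622 of all 8631 genes, and 10 of the 17 were among the 11 fibril collagens. edgeR called 0 and DESeq2 1, Col1a1. The collagen list had a median log2 fold change of 0.92, against -0.0077 over all genes. Without control 3 limma called 6 list genes, Thbs2 and the same collagens less Col14a1. In ORX+DHT against control limma, edgeR and DESeq2 each called 0 of 69, with 3 at an unadjusted p under 0.05 in limma, against 557 of all 8595 genes.

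Summed markers of tendon were also highest in ORX muscle, but control 3 did not stand out among the controls in that sum. Among single tendon markers control 3 was the highest control for Chad, Cilp2 and Fmod, and control 1 for Tnmd, Scx, Mkx, Kera and Cilp. The 8 tendon markers summed to 243, 176 and 237 normalised counts in controls 1, 2 and 3, 321 to 591 in ORX muscle and 182 to 217 in ORX+DHT muscle. Means were higher in ORX than in ORX+DHT for 8 of 8, without overlap for 4 of 8. Of all 8770 genes tested, 9.13% showed every ORX+DHT library below every ORX library. Scx and Mkx had means under 10 normalised counts, so their part in the 8 of 8 rests on a few reads. Mkx was also among the 4 without overlap. Fmod, for a collagen-binding proteoglycan, made up the largest share of the sum with 154, 249.04 and 386 in ORX muscle, highest in library 3. Among the 10 matrix genes 5 were also highest in ORX 3 (Comp, Tnc, Ibsp, Thbs4 and Sparc), and the other 5 in ORX 1 or 2. Scx and Mkx, transcription factors that define tendon cells, were low, at 1.98 to 12.5 and 0.967 to 2.94 over all 9 libraries. The part of tendon markers in these results was not tested.

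Markers of bone and cartilage were scarce although Ibsp and Spp1 are known from bone. The 8 markers summed to 39.8 to 73.5 in controls, 69.7 to 86.0 in ORX muscle and, with DHT, 49.3 to 53.7. The ORX mean exceeded the mean with DHT for 8 of 8. There was no overlap for 3 of 8, a pattern that 9.13% of all 8770 genes tested showed. Only 1 of the 8 markers had a mean of at least 10 normalised counts. The count of 8 of 8 therefore rests mostly on a few reads, and no rise of bone markers is read from it. Acan, for the cartilage proteoglycan aggrecan, was at 0, 0 and 12.9 in controls, 9.82, 8.53 and 3.31 in ORX and 0, 0 and 1.98 in ORX+DHT muscle, with control 3 high as for Tnn and Ibsp. Alpl, an alkaline phosphatase made in many tissues, gave most of the sum. Bglap, for osteocalcin, and Sp7, an osteoblast transcription factor, stood at 0 to 1.25 and 0 to 1.99. Runx2, a transcription factor of bone-forming cells, was at 0, 1.11 and 0.993 in controls, 6.87, 4.26 and 4.96 in ORX and 1.01, 0.967 and 0 in ORX+DHT muscle. These were too few reads to pass the filter on low values, and their part in the results was not tested.

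Among the other cell types below, only the smooth muscle and pericyte list and the Schwann cell list had a group whose sums stood apart from all others. Fibroblast markers (9 genes) summed to 982 to 1516, 1012 to 1773 and 1268 to 1557 in control, ORX and ORX+DHT muscle, with overlapping ranges and only Lum without overlap between the last groups. Macrophage markers (10 genes) summed to 68.6 to 119.9, 89.6 to 171 and 105 to 136, also overlapping. Smooth muscle and pericyte markers (7 genes) summed to 1053 to 1150, 1133 to 1224 and 1311 to 1347, so their highest level was in ORX+DHT muscle. Schwann cell markers (5 genes) summed to 106 to 113, 148 to 174 and 99.3 to 145, with every ORX library above all others. Endothelial markers (8 genes) summed to 874 to 955, 818 to 994 and 944 to 1083, satellite cell and regenerating fibre markers (8 genes) to 155 to 158, 151 to 186 and 151 to 184. Within the latter list means were higher in ORX than in ORX+DHT muscle for 6 of 8 genes. Myod1 and Cdh15 went the other way, with means of 45.1 and 31.2 in ORX and 58.3 and 35.9 in ORX+DHT muscle. Only 1 of the 8 had every ORX+DHT library below every ORX library, against 9.13% of all 8770 genes tested. It was Myog, for the muscle differentiation factor myogenin, named here for its values. Myog was at 3.75, 1.11 and 12.9 in controls, 15.7, 17.1 and 8.27 in ORX and 5.07, 4.83 and 2.96 in ORX+DHT muscle, so it was high in control 3. Adipocyte (5 genes) and erythrocyte (5 genes) markers ranged over 390 to 652 and 87.8 to 252 across all libraries, with overlapping groups. The part of these lists in the results was not tested.

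**Figure D4:**
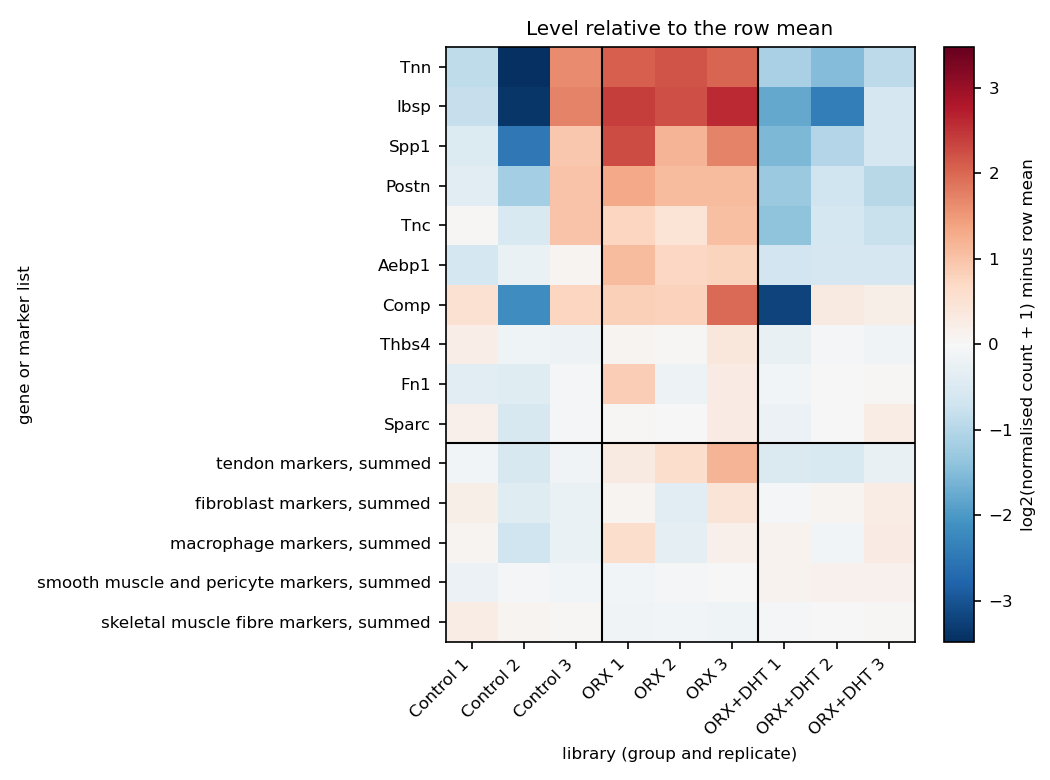
Colour shows log2(normalised count + 1) minus the mean of its row for the 10 genes and for 5 summed marker lists (rows) in the 9 libraries (columns), red above and blue below the row mean. Tnn, Ibsp, Spp1, Postn and Tnc are red in control 3 and in all ORX libraries and blue in all ORX+DHT libraries, while the tendon marker sum is highest in ORX 3 (591).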

How the data were processed

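Poly(A) RNA of tibialis anterior muscle was sequenced from directional libraries, per the labels' protocols. Trim Galore 0.6.7, HISAT2 2.2.1, featureCounts 2.0.1 and DESeq2 1.36.0 and the build GRCm38 are named in the submitters' processing notes. The deposited values are a normalised signal, gene counts divided by a factor per library, in 2 tables of protein-coding genes (14596 and 14675 genes) that were scaled separately by the authors. Dividing by the smallest value above 0 in each library gave whole reads for 100% of values, within 0.001 of a read. On these reads edgeR 4.0.16 called 6 genes between ORX and control, 366 between ORX+DHT and ORX, and 4 between ORX+DHT and control, and DESeq2 1.42.0 was another alternative.

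The tables share 14300 genes, which were put on 1 scale with median-of-ratios factors for levels and for ORX+DHT against control. The other comparisons used their own table. Limma 3.58.1 (R 4.3.3, eBayes with trend) was fitted to log2(value + 1) for genes with a mean of at least 10 over the libraries fitted, with Benjamini-Hochberg adjustment over all genes and calls at 0.05. The members and lists were chosen with earlier results of these data known. All 10 genes are named, with the 3 called list genes of largest fold change per list and comparison, and the 5 genes most like Postn and Tnn; Col1a1, Col1a2 and Col5a2 are also named as calls. Gene positions are from GENCODE M21 and promoters from RefSeq (GRCm38.p6), which held 8 of the 10 genes. Data were simulated with 200 genes changed by 2 on the log2 scale. Limma recovered 91.0% in ORX+DHT against ORX (8737 genes tested) and 92.5% in ORX against control (8605 genes tested). The simulated counts gave every gene the same spread between replicates and held no outlying library, unlike the real controls. These shares therefore do not measure the power of the real comparisons. Replicates are biological per the labels, with no word on cages or litters.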

Additional observations from a re-analysis of the deposited data

How the results depend on the processing

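In ORX against control, the 5 genes called became 16 with no filter on low values, 23 with all 9 libraries in 1 fit, 28 with DESeq2 and 1 to 51 with 1 library left out. Of the 10 matrix genes 0 were called, against 1 with no filter, 1 with all 9 libraries, 1 with DESeq2 and 0 to 5 with 1 library left out. Of the list genes 0 were called, against 1 with DESeq2 and 0 to 6 with 1 library left out. In ORX+DHT against ORX, the 358 genes called became 123 with all 9 libraries and 224 with DESeq2, and 223 to 350 with 1 library left out. The 6 matrix genes called became 2 with a minimum mean of 50, where 5 of the 10 were in the fit, and 6 to 7 with 1 library left out; Tnn was lost with all 9 libraries in 1 fit. The 10 list genes called became 5 with a minimum mean of 50, 5 with all 9 libraries, and 8 to 13 with 1 library left out. In ORX+DHT against control, the 3 genes called became 6 with quantile normalisation, 11 with all 9 libraries, 13 with DESeq2 and 0 to 66 with 1 library left out, and 0 matrix genes and 0 list genes were called under any setting run. Quantile normalisation moved the share of higher calls to 33.3% from 20% for the ORX against control comparison, and to 66.7% from 33.3% for muscle with DHT against control, shares of 3 to 6 calls each, and to 49.2% of 327 calls from 58.4% of 358 for muscle with DHT against ORX. The causes of these changes in calls were not tested. Of 431 refitted fold changes of the matrix genes 424 moved by less than 1 SD, and 3 changed sign, none of them a call: Sparc in ORX+DHT against ORX without ORX+DHT 1 (0.015), and in ORX+DHT against control Thbs4 without control 1 (0.017) and Sparc without control 2 (-0.040).

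Whether replicate numbers pair the samples could not be told. Deviations of same-numbered libraries from their group means correlated at -0.16, 0.060 and -0.11 between control and ORX. Different-numbered libraries ran from -0.16 to 0.19 there. Between ORX and ORX+DHT same-numbered libraries correlated at 0.063, 0.061 and 0.15, and different-numbered ones at -0.087 to 0.025. With the number as a replicate block, 571 genes, 8 matrix genes (Comp and Thbs4 added) and 16 list genes were called in ORX+DHT against ORX, and the other comparisons stayed at 5 genes (ORX against control) and 3 genes (DHT against control). Depth limits Tnn, Ibsp, Spp1, Comp and Runx2 most, which rest on few reads in control and ORX+DHT muscle.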
